A study of Mus musculus with 800 samples.

Results

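Kainate receptors are glutamate-gated ion channels built from the subunits encoded by Grik1 to Grik5, and the auxiliary proteins encoded by Neto1 and Neto2 bind to them. These 7 genes are described here across cell classes, interneuron kinds and vectors, out of 32285 genes in the table of read counts. The rows were found by their Ensembl identifiers, and all 7 were present. The genes were chosen by their CPM across the same nuclei, after earlier results had shown Grik1 to differ between inhibitory and excitatory nuclei. Levels of GABAergic-like against glutamatergic-like nuclei and of neurons against glia are therefore given as a description, with no test.

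The labels describe 800 single nuclei of C57Bl/6J mice, each sorted for a yellow fluorescent reporter fused to histone H2B (H2B-SYFP2). An adeno-associated virus of the PHP.eB capsid, which crosses into the brain from the blood, carried the reporter at 5e11 vector genomes per mouse, and nuclei were sorted 3 to 4 weeks later. Each of 20 vectors drove the reporter from its own element and contributed 40 nuclei: AiE0078h, AiE0140h, AiE0387m, AiE0390m, AiE0391h, AiE0401h, AiE0410m, AiE0445h_3xC2, AiE0447h, AiE0450h, AiE0452h, AiE0475m, AiE0600m, AiE0682h, AiE0743m_3xC2, AiE0779m, CMV, DLX2.0, hI56i and hSyn1. No label names an animal, so a vector was treated as 1 sample, and p-values measure only the spread between these vectors, which may be technical. No group without a virus was among the samples, so every nucleus carried a vector and the reporter.

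The classes used below were striatal projection neuron-like (161 nuclei, the inhibitory output cells of the striatum), GABAergic-like (255, inhibitory interneurons), glutamatergic-like (108, excitatory neurons of cortex), astrocyte-like (106) and oligodendrocyte-like (50), with 18 nuclei left unnamed. They came from clustering the 698 nuclei with at least 1000 genes detected, without the 7 genes, and from fixed marker genes. The ending "-like" marks a name taken from RNA alone. All nuclei are labelled as anterior lateral motor cortex, although the series text also names striatum. The striatal projection neuron-like nuclei go against that label: all 12 of their markers, among them Rgs9, Pde10a and Penk, were detected in at least 25% of them, and their summed marker level was 10629 CPM (reads of a gene scaled to a library of 1000000 reads), against 513 CPM in GABAergic-like nuclei. They fell in 38 of the 100 runs of 8 consecutive title numbers, so the calls of Grik2 and Grik5 are given below also within those runs. Calls of other receptor genes and of partner genes that rest on these nuclei are not given within those runs. Median depth was 260170.5 reads per nucleus (70 to 901264), and no library had values identical to another.

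Kainate receptors sit on both sides of synapses, where they carry slow postsynaptic currents and tune the release of glutamate and GABA. Grik1, Grik2 and Grik3 encode subunits that can form channels on their own. Grik4 and Grik5 encode subunits with a higher affinity for kainate that reach the cell surface only together with one of the other three. Neto1 and Neto2 encode single-pass membrane proteins that slow the closing of these channels and alter their surface or synaptic delivery, and Neto1 has also been tied to NMDA receptors. Grik1 is known from interneurons of hippocampus and cortex, and Grik2 from projection neurons.

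Grik1 (chromosome 16, 87895900 to 88290265, minus strand of mm10) was detected in no striatal projection neuron-like nucleus. At equal depth, with each nucleus thinned to 150000 reads, 0 of 149 had a read, which allows a share of up to 2.01% (taken here and for other zeros as 3 nuclei of the total). In GABAergic-like nuclei the share was 62.0% (150 of 242). Only 1 of 101 glutamatergic-like nuclei had a read (0.99%), against 8.65% of astrocyte-like and 8.16% of oligodendrocyte-like nuclei. Grik1 appeared in a smaller share of glutamatergic-like nuclei than of glia, with no test made over nuclei.

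Summed per vector, Grik1 was 0 CPM in striatal projection neuron-like nuclei under all 14 vectors with at least 3 such nuclei. GABAergic-like nuclei ranged over 18 vectors from 18.9 CPM to 591 CPM, with a median of 200.3 CPM, and glutamatergic-like nuclei reached at most 7.98 CPM and were at 0 under 11 of 12 vectors. The ranges of striatal projection neuron-like and GABAergic-like sums did not overlap. Over the 12 vectors with both classes, Grik1 averaged 0 CPM in striatal projection neuron-like and 212 ± 151 CPM (SD) in GABAergic-like nuclei, and it was lower in 12 of 12 vectors. No test is given for Grik1, since it passed the filter on low counts only through the GABAergic-like sums. The summed level of 255 CPM in GABAergic-like nuclei was 3363-fold a floor of 3 reads over all striatal projection neuron-like nuclei (0.0759 CPM). That floor covers counting error only, and the reads of 1 nucleus are not independent. The median level in GABAergic-like nuclei that held Grik1 was 293 CPM, so the ratio is no lower bound on the difference. In GABAergic-like nuclei outside the runs that hold striatal projection neuron-like nuclei Grik1 averaged 258 CPM, close to the 239 CPM over all.

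**Figure D1:**
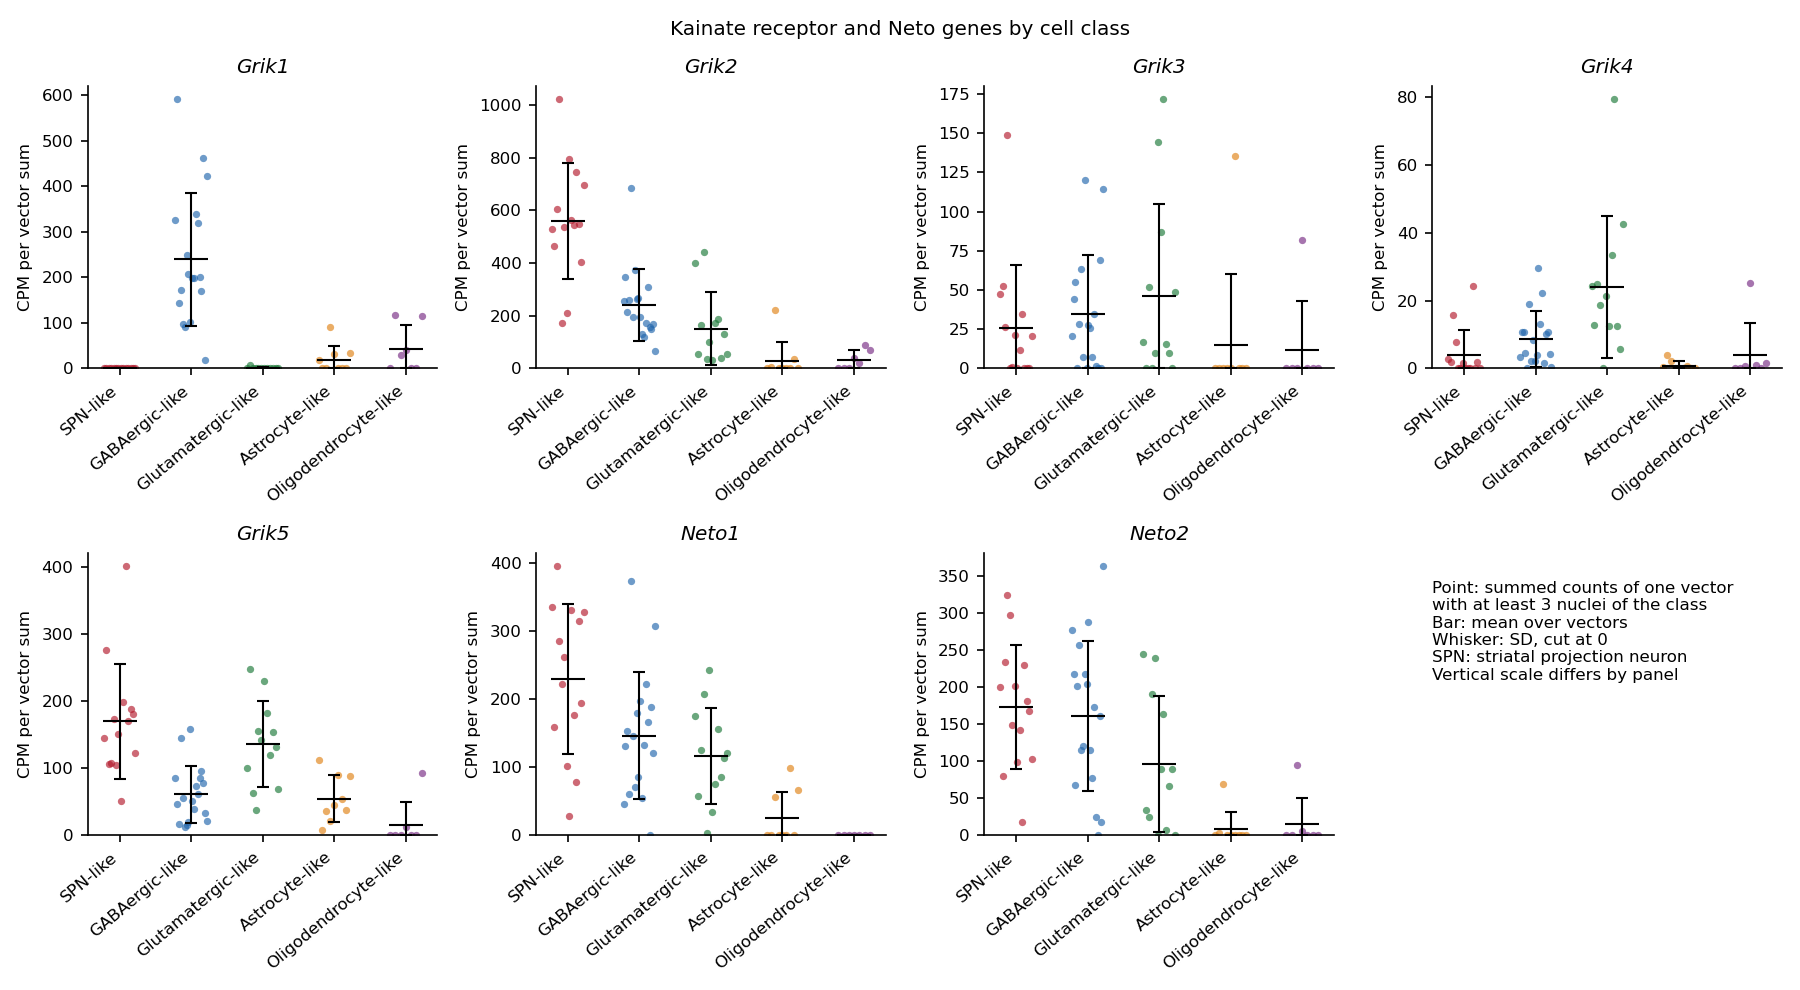
Levels in CPM (vertical axes) of the 7 genes in 5 cell classes (horizontal axes). Each point is the sum of 1 vector with at least 3 nuclei of the class, bars are means and whiskers SD. Grik1 sums of GABAergic-like nuclei lie between 18.9 and 591 CPM while those of striatal projection neuron-like (SPN-like) nuclei are all at 0, and Grik2 is highest in SPN-like nuclei.

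Grik2 (chromosome 10, 49094833 to 49788766, minus strand), another subunit that forms channels alone, was highest in striatal projection neuron-like nuclei. Grik2 overlaps 2 other genes of the table on its own strand, Gm26543 and Gm47018. It was detected at equal depth in 82.6% of striatal projection neuron-like, 57.9% of GABAergic-like and 48.5% of glutamatergic-like nuclei, against 6.73% of astrocyte-like and 16.3% of oligodendrocyte-like nuclei. Striatal projection neuron-like sums ran from 173 CPM to 1022 CPM over 14 vectors, with a median of 546 CPM. GABAergic-like sums ran from 66.0 to 686 CPM with a median of 205 CPM, and glutamatergic-like sums from 30.3 to 441 CPM with a median of 115 CPM. The ranges overlapped, and the mean of striatal projection neuron-like nuclei stood above that of GABAergic-like nuclei by 319.8 CPM, more than the larger SD of the pair (221 CPM). GABAergic-like, glutamatergic-like, oligodendrocyte-like and astrocyte-like nuclei followed in this order, and no neighbours among them differed by more than the larger SD.

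Within the 12 vectors that hold both classes, Grik2 averaged 575 ± 235 CPM in striatal projection neuron-like and 282 ± 147 CPM in GABAergic-like nuclei (SD). It was higher in 10 of 12 vectors, with a log2 fold change of 1.09 (SE 0.31, adjusted p = 0.0335, edgeR's quasi-likelihood F test within vectors, Benjamini-Hochberg adjusted over 9011 genes). The exceptions were AiE0401h, with 173 CPM in striatal projection neuron-like and 197 CPM in GABAergic-like nuclei, and AiE0445h_3xC2, with 209 and 376 CPM in the same order. The call depended on single vectors: it was kept in 4 of 12 fits that left out 1 vector and lost without AiE0078h, AiE0387m, AiE0447h, AiE0450h, AiE0475m, AiE0682h, AiE0743m_3xC2 or hI56i (adjusted p 0.0130 to 0.0845 by edgeR). Within the runs that hold striatal projection neuron-like nuclei the log2 fold change was 1.63 with an adjusted p = 0.229 by edgeR. It was 1.42 within library series S40326 alone (adjusted p = 0.389, edgeR) and 1.93 with runs of 8 as unit (adjusted p = 0.197, edgeR).

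Against glutamatergic-like nuclei the Grik2 difference was larger. Over 9 shared vectors Grik2 averaged 562 ± 184 CPM in striatal projection neuron-like and 180 ± 149 CPM in glutamatergic-like nuclei (SD), and was higher in 9 of 9. The log2 fold change was 2.06 (SE 0.53, adjusted p = 0.0310 by edgeR over 7595 genes). Without the replicate block the log2 fold change was 1.62 (adjusted p = 0.0593, edgeR), and within library series S40326 alone it was 1.77 (adjusted p = 0.646, edgeR). The call was kept in 3 of 9 fits that left out 1 vector and lost without AiE0140h, AiE0450h, AiE0475m, AiE0682h, AiE0743m_3xC2 or hI56i (adjusted p 0.0131 to 0.0989 by edgeR). Within the runs that hold striatal projection neuron-like nuclei the log2 fold change was 2.17 (adjusted p = 0.261 by edgeR), and both comparisons share the striatal projection neuron-like nuclei of their common vectors.

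Grik3 (chromosome 4, 125490700 to 125714173, plus strand), the third subunit able to form channels alone and the one with the lowest sensitivity to glutamate, was sparse throughout. At equal depth it was detected in 11.4% of striatal projection neuron-like, 15.3% of GABAergic-like and 18.8% of glutamatergic-like nuclei. Its class means ran from 46.3 ± 58.6 CPM in glutamatergic-like to 11.7 ± 31.01 CPM in oligodendrocyte-like nuclei (SD, 12 and 7 vectors), and no neighbours in the order of the 5 classes differed by more than the larger SD. Grik3 was not called in either comparison (log2 fold change -0.20 with a 95% interval of -3.47 to 3.07 against GABAergic-like nuclei, and -0.83 with -6.16 to 4.50 against glutamatergic-like nuclei). These intervals include differences of several-fold in either direction.

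Grik5 (chromosome 7, 25009849 to 25072346, minus strand), a high-affinity subunit that pairs with Grik1, Grik2 or Grik3, was present in most projection neurons of both kinds. It was detected at equal depth in 60.4% of striatal projection neuron-like, 38.8% of GABAergic-like and 67.3% of glutamatergic-like nuclei. Of the 7 genes it was the one most often detected in astrocyte-like nuclei, 30.8% of them, against 4.08% of oligodendrocyte-like nuclei. Its sums ran from 51.2 to 402 CPM in striatal projection neuron-like nuclei (median 160 CPM), from 11.9 to 159 CPM in GABAergic-like nuclei (median 53.3 CPM) and from 37.4 to 249 CPM in glutamatergic-like nuclei (median 137 CPM).

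In the 12 vectors with both classes Grik5 averaged 174 ± 91.3 CPM in striatal projection neuron-like and 52.3 ± 42.2 CPM in GABAergic-like nuclei (SD). It was higher in 12 of 12 vectors, with a log2 fold change of 2.02 (SE 0.51, adjusted p = 0.0127, edgeR), and it stayed past the threshold in 12 of 12 fits that left out 1 vector. Within the runs that hold striatal projection neuron-like nuclei the log2 fold change was 2.17 (adjusted p = 0.242 by edgeR). It was 1.92 within library series S40326 alone (adjusted p = 0.177, edgeR) and 2.24 with runs of 8 as unit (adjusted p = 0.307, edgeR). The call was lost in each of these settings. Against glutamatergic-like nuclei Grik5 was not called, with a log2 fold change of 0.46 and a 95% interval of -0.48 to 1.41.

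Grik2 and Grik5 are the members that were higher together in striatal projection neuron-like nuclei, so the 250 bases before the start of each are shown (RefSeq, GRCm38.p6, minus strand, 5′ to 3′). RefSeq windows were matched for 5 of the 7 genes. Capitals mark GGGCGG or its reverse complement, the GC box motif, which 32.7% of 32851 RefSeq promoters of this length hold.
Grik2, chr10:49788755-49789004: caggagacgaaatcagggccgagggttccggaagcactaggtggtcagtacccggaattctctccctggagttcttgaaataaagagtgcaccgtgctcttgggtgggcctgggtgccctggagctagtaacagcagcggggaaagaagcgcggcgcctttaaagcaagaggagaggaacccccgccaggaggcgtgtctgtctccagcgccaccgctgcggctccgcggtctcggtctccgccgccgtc
Grik5, chr7:25072370-25072619: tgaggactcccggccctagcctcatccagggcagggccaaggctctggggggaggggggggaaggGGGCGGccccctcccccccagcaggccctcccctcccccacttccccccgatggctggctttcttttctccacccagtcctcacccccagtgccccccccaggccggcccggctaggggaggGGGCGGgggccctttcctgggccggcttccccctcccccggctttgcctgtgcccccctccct
The Grik5 window held 2 GC boxes and the Grik2 window none. Neither held the letters TATAAA on either strand, which 12.4% of the promoters hold. GC content was 62.8% for Grik2 and 75.2% for Grik5, with a median of 52.4% over all windows.

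Grik4 (chromosome 9, 42518135 to 42944493, minus strand), the other high-affinity subunit, was low in every class. Its class means were 4.00 ± 7.28 CPM in striatal projection neuron-like (14 vectors), 8.69 ± 8.13 CPM in GABAergic-like (18 vectors) and 23.98 ± 20.9 CPM in glutamatergic-like nuclei (SD, 12 vectors), and no neighbours in the order differed by more than the larger SD. It was detected at equal depth in 43.6% of glutamatergic-like nuclei, against 13.4% of striatal projection neuron-like and 28.1% of GABAergic-like nuclei. The median level in the glutamatergic-like nuclei that held it was 16.6 CPM, which is a few reads per nucleus. Grik4 was below the filter on low counts in all 3 comparisons and was not tested.

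Neto1 (chromosome 18, 86394952 to 86506718, plus strand) overlaps an annotated gene on the opposite strand, AC113599.1, and the protocol does not keep strand. Its sums ran from 27.9 to 396 CPM in striatal projection neuron-like nuclei (median 242 CPM), from 0 to 374 CPM in GABAergic-like nuclei (median 139 CPM) and from 2.89 to 242 CPM in glutamatergic-like nuclei (median 117 CPM). It was higher in striatal projection neuron-like than in GABAergic-like nuclei in 9 of 12 vectors and than in glutamatergic-like nuclei in 8 of 9, but neither difference was called (log2 fold change 0.73, 95% interval -0.25 to 1.71, and 1.18, -0.30 to 2.66). In oligodendrocyte-like nuclei Neto1 had 0 reads, at equal depth in 0 of 49 nuclei, which allows a share of up to 6.12%.

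Neto2 (chromosome 8, 85636588 to 85700924, minus strand), which is also known to bind the chloride transporter KCC2, averaged 173 ± 83.9 CPM in striatal projection neuron-like, 161 ± 102 CPM in GABAergic-like and 95.6 ± 91.6 CPM in glutamatergic-like nuclei (SD; 14, 18 and 12 vectors). The ranges overlapped and no neighbours differed by more than the larger SD. The log2 fold change was 0.36 (95% interval -0.70 to 1.43) against GABAergic-like nuclei and 0.48 (-1.08 to 2.04) against glutamatergic-like nuclei, and neither was called. Glial means were 8.01 ± 22.9 CPM in astrocyte-like and 14.1 ± 35.2 CPM in oligodendrocyte-like nuclei (SD, 9 and 7 vectors).

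In all, 6 of the 7 genes passed the filter on low counts against GABAergic-like nuclei, where Grik2 and Grik5 (2) were higher in striatal projection neuron-like nuclei. Of the 9011 genes tested there, 3.28% were higher and 4.79% lower. Grik1 is not counted as a lower member, since its 0 reads in 1 class fixed the outcome. Against glutamatergic-like nuclei 5 of the 7 were tested and 1 was higher and 0 lower, where 1.66% of 7595 genes were higher and 1.42% lower. Over all genes tested the log2 fold change had a median of -0.53 against GABAergic-like and 0.04 against glutamatergic-like nuclei, so in this fit the values of Grik2 and Grik5 against GABAergic-like nuclei lie further from the median of all genes than from 0. That median was not stable against GABAergic-like nuclei. It was 0.07 within the runs that hold striatal projection neuron-like nuclei, -0.21 within library series S40326 and -0.19 without the vector as block. Of 9 oligodendrocyte markers, 8 had reads in the sums of the fit as reported, which came per vector to between 0 and 2337 CPM in striatal projection neuron-like nuclei and between 0 and 360 CPM in GABAergic-like nuclei, with Mog and Opalin at 0 over all striatal projection neuron-like nuclei. Oligodendrocyte-like nuclei themselves held 57.5 CPM of Grik2 and 11.9 CPM of Grik5, below the summed 532 and 168 CPM of these genes in striatal projection neuron-like nuclei, and the part of these markers in the result was not tested.

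**Figure D2:**
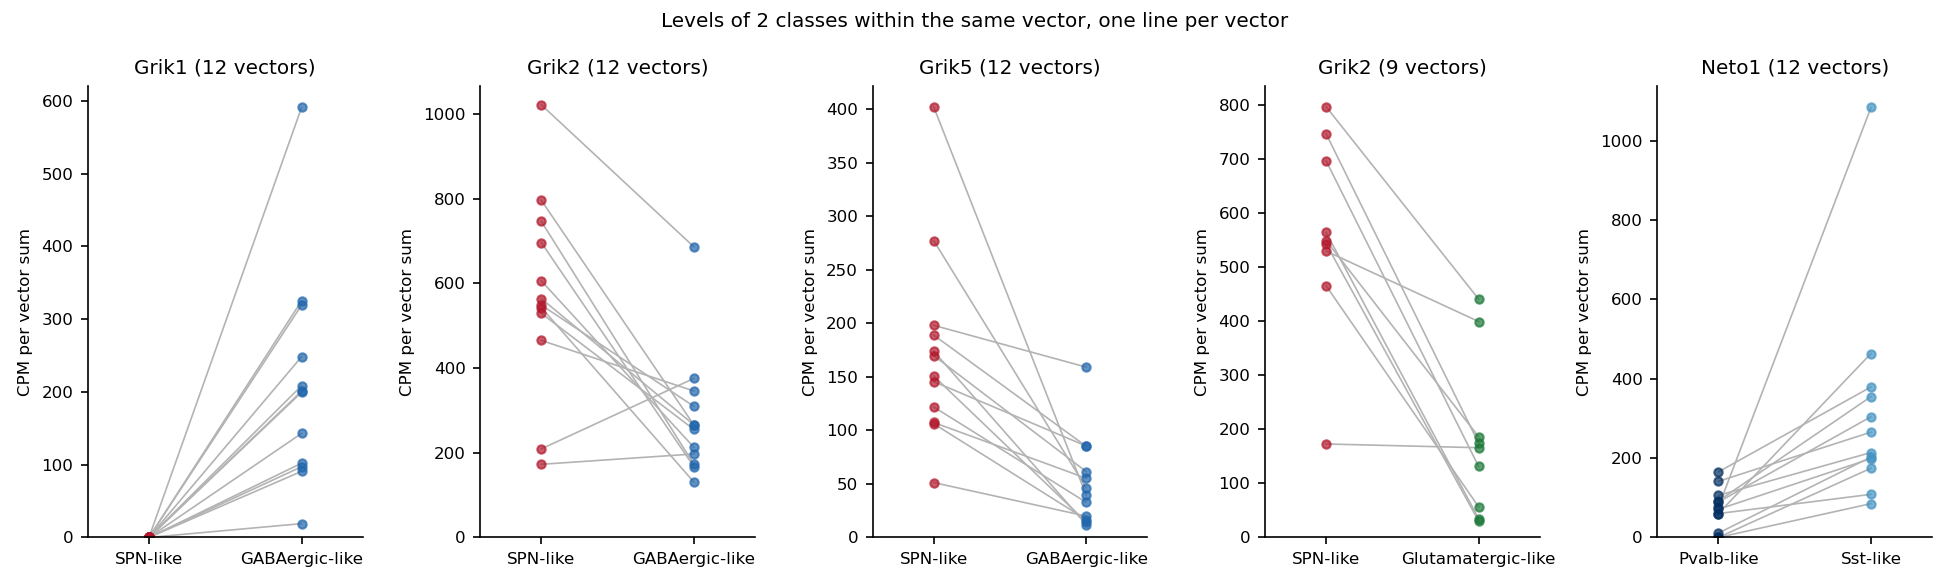
Levels in CPM (vertical axes) of the genes in 2 classes of the same vector (horizontal axes), with 1 line per vector. Grik2 is higher in striatal projection neuron-like (SPN-like) than in GABAergic-like nuclei on 10 of 12 lines and Grik5 on 12 of 12, while Neto1 is lower in Pvalb-like than in Sst-like nuclei on 12 of 12.

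The other ionotropic glutamate receptors, 13 genes of the AMPA, NMDA and delta families, gave the setting. Against GABAergic-like nuclei 11 were tested, of which 2 were higher and 2 lower in striatal projection neuron-like nuclei, with a list median log2 fold change of 0.08 beside -0.53 over all genes. Grin2b, an NMDA subunit, averaged 1118 ± 125 CPM in striatal projection neuron-like and 637 ± 170 CPM in GABAergic-like nuclei (log2 fold change 0.90, adjusted p = 0.00831, edgeR, SD over 12 vectors). Gria2, the AMPA subunit that limits calcium entry, was also higher (log2 fold change 0.49, adjusted p = 0.0301, edgeR). Gria4, an AMPA subunit of fast interneurons, was lower, at 220 ± 125 CPM in striatal projection neuron-like against 674 ± 169 CPM in GABAergic-like nuclei (log2 fold change -1.78, adjusted p = 0.00179, edgeR). Grin3a was the other lower gene, with 4.90 ± 16.7 against 75.8 ± 71.6 CPM. It passed the filter on low counts mainly through the GABAergic-like sums, so its p-value is not given. Against glutamatergic-like nuclei 9 were tested and 0 called by edgeR, with 2 at an unadjusted p under 0.05 and 1 called by DESeq2 (Grin2a), and the list median was -0.04 beside 0.04 over all genes. DESeq2 called 1066 of all 7595 genes there.

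Of 20 genes listed as kainate receptor partners (scaffolds, trafficking factors, extracellular organisers and RNA editing enzymes), 19 were in the table and 17 were tested against GABAergic-like nuclei. There 1 was higher and 1 lower by edgeR, with 4 at an unadjusted p under 0.05 and 7 called by DESeq2 (Snap25, Adar, Kif17, Adarb1, Grip1, Dlg4 and Prkca), and the list median log2 fold change was -0.36. DESeq2 called 2572 of all 9011 genes in this comparison. Kif17, a kinesin that carries Grin2b and Grik5 cargo along dendrites, averaged 213 ± 191 CPM in striatal projection neuron-like against 32.5 ± 32.4 CPM in GABAergic-like nuclei and was higher in 12 of 12 vectors (log2 fold change 3.17, SE 0.76, adjusted p = 0.00886, edgeR). Grip1, a PDZ scaffold of AMPA and kainate receptors, averaged 23.1 ± 25.9 against 233 ± 90.0 CPM and was lower in 12 of 12 (adjusted p = 0.00601, edgeR). Against glutamatergic-like nuclei 16 partners were tested with a median of -0.06, and 2 were called by edgeR and 5 by DESeq2, which called 1066 of all 7595 genes. Nrxn3, a neurexin that organises synapses, was higher (log2 fold change 1.24, adjusted p = 0.0341, edgeR) and Snap25, a vesicle fusion protein that binds Grik5, was lower (log2 fold change -0.87, adjusted p = 0.0160, edgeR).

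Among interneurons, Pvalb-like nuclei (97, in a cluster led by Pvalb) and Sst-like nuclei (104, in clusters of 80 led by Lama4 and of 24 led by Nos1) are the main kinds. The Lama4 cluster took its name through Crhbp alone among its leading genes, and its summed Sst level was 3469 CPM against 51.1 CPM in Pvalb-like nuclei. Clusters of 27 nuclei led by Pthlh and of 27 led by Vip stayed without a kind. Grik1, Grik2, Grik3 and Neto1 had lower means in Pvalb-like nuclei, and none of the members was called by edgeR.

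Neto1 had the smallest adjusted p of these. It ran from 0 to 165 CPM in Pvalb-like nuclei (median 73.8 CPM) and from 85.2 to 1084 CPM in Sst-like nuclei (median 240 CPM) over 12 shared vectors. It was lower in Pvalb-like nuclei in 12 of 12, with means of 72.7 ± 52.0 CPM in Pvalb-like and 320 ± 265 CPM in Sst-like nuclei (SD, log2 fold change -2.61, SE 0.73, adjusted p = 0.155, edgeR). The ranges overlapped. Grik3 averaged 6.41 ± 7.74 CPM in Pvalb-like and 87.3 ± 74.5 CPM in Sst-like nuclei and was lower in 11 of 12 vectors.

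Grik1 averaged 225 ± 152 CPM in Pvalb-like and 388 ± 246 CPM in Sst-like nuclei (SD) and was lower in 10 of 12 vectors (log2 fold change -0.96, adjusted p = 0.571, edgeR). Grik2 averaged 168 ± 210 CPM in Pvalb-like and 286 ± 129 CPM in Sst-like nuclei and was lower in 10 of 12 (log2 fold change -1.29, adjusted p = 0.4929, edgeR), with 807 CPM in Pvalb-like nuclei of AiE0391h against at most 197 CPM in the other 11. Neto2 had the other sign, 257 ± 127 CPM in Pvalb-like and 220 ± 158 CPM in Sst-like nuclei (log2 fold change 0.65, 95% interval -0.47 to 1.78), and Grik5 averaged 39.5 ± 30.8 and 40.2 ± 37.9 CPM in the same order (log2 fold change -0.01, 95% interval -2.28 to 2.25).

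Thus 0 of the 6 members tested were called by edgeR, where 0.158% of 7583 genes were higher and 0.343% lower in Pvalb-like nuclei. At an unadjusted p under 0.05 edgeR counted 4 members, a count that was not made over all genes. DESeq2 called 567 of the 7583 genes after adjustment, among them 4 members, Grik1, Grik2, Grik3 and Neto1. Of these, Grik3 was near 0 in Pvalb-like sums (median 2.54 CPM, against 79.1 CPM in Sst-like sums). It passed the filter on low counts mainly through the Sst-like sums, so its fold change and p-value are not given and its calls are not read as a result. Without the runs that hold striatal projection neuron-like nuclei the log2 fold change of Neto1 was -2.95 (adjusted p = 0.999, edgeR, 8 vectors). Of the other ionotropic glutamate receptors 10 were tested, with a median log2 fold change of -0.34 beside 0.05 over all genes, and Grin3a alone passed the threshold by edgeR. Grin3a was at 1.66 ± 3.67 CPM in Pvalb-like against 218 ± 129 CPM in Sst-like nuclei. It passed the filter on low counts mainly through the Sst-like sums, so its p-value is not given. None of 17 partners was called by edgeR, with 2 at an unadjusted p under 0.05 and 3 called by DESeq2 (Prkca, Nrxn3 and Cdh2), and their median was -0.24.

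Levels of the members by cluster within the GABAergic-like class are given with no test. The cluster led by Nos1, with Nos1, Chodl, Tacr1, Sst and Npy among its leading genes and 12348 CPM of Npy, held the most Grik4 of the interneuron clusters: 45.8 CPM (95% Poisson interval 41.1 to 51.0), against 4.76 CPM in the Lama4 cluster. Grik4 was detected at equal depth in 19 of its 24 nuclei (79.2%), against 11 of 72 (15.3%) in the Lama4 cluster. Its Neto1 and Neto2 levels were 31.4 and 37.6 CPM, against 283 and 224 CPM in the Lama4 cluster. No test was made, since a single vector held 3 or more nuclei of the Nos1 cluster, with 67.2 CPM of Grik4 in its sum. The Poisson interval covers counting error only and not the spread between vectors.

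The cluster led by Pthlh was the interneuron cluster with the least Grik1 and Grik2. Grik1 was 9.50 CPM there and detected at equal depth in 11.1% of 27 nuclei, against 66.7% of Pvalb-like and 72.9% of Sst-like nuclei, and Grik2 was 23.5 CPM. It kept 110 CPM of Neto1, 59.9 CPM of Grik5 and 53.8 CPM of Neto2. The cluster led by Vip held 342 CPM of Grik1 summed over its nuclei, but by vector Grik1 was 0 under 2 of 4 vectors, 268 CPM under AiE0445h_3xC2 and 545 CPM under DLX2.0 (mean 203 ± 260.4 CPM, SD). Its summed Grik2 and Grik5 were 469 and 127 CPM (means 417 ± 317 and 144 ± 137 CPM over 4 vectors). It had 0 reads of Grik3, at equal depth in 0 of 26 nuclei, which allows a share of up to 11.5%. Vip itself was detected in only 7 of the 27 nuclei of this cluster, against 26 with Adarb2, 22 with Npy and 18 with Kit. These levels are therefore not those of a named interneuron kind. The unnamed cluster of 18 nuclei led by Cpne4 had 107 CPM of Grik1, 86.2 CPM of Grik2 and 90.0 CPM of Grik5. Gad1, a GABAergic marker, was detected in all 18 of these nuclei (593 CPM). Chat and Slc5a7, genes of acetylcholine synthesis and choline uptake, were each detected in only 4 of them (136 and 158 CPM).

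**Figure D3:**
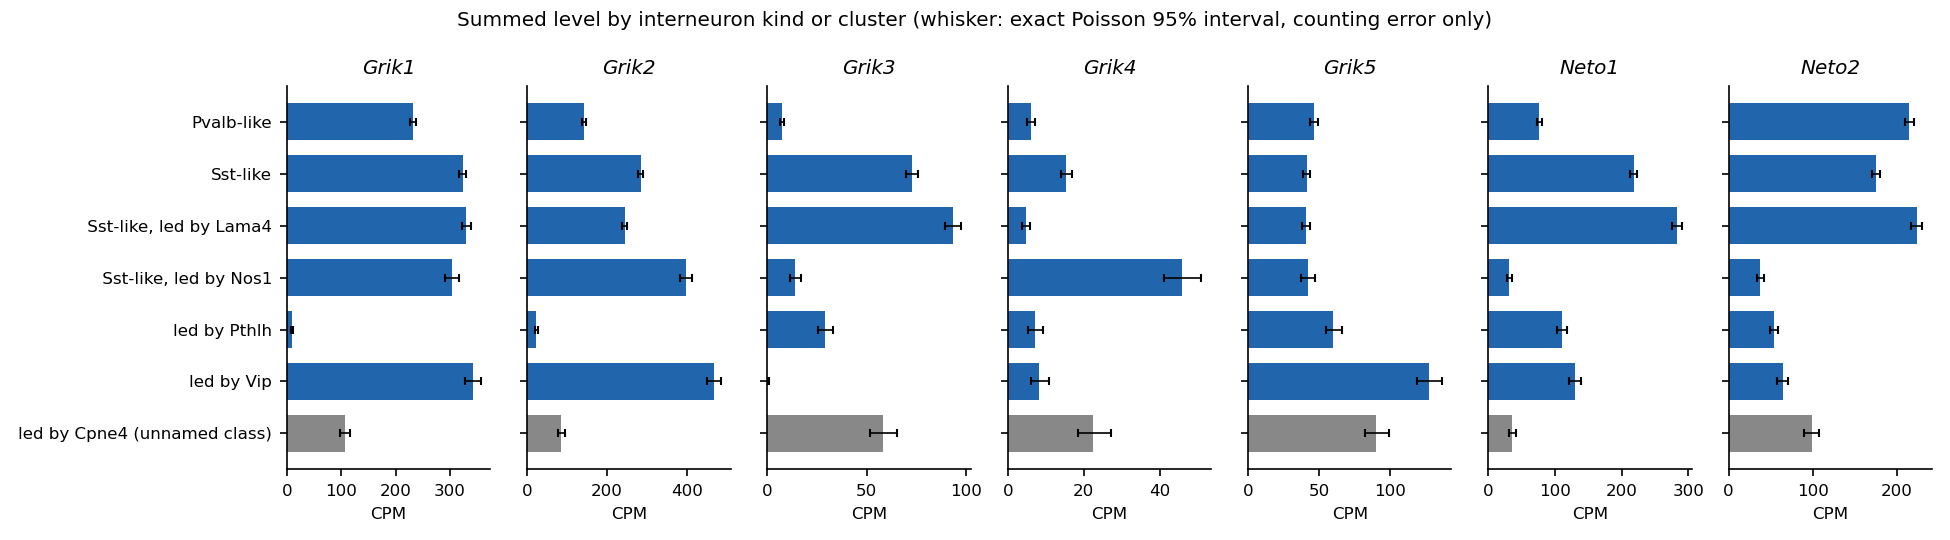
Summed levels in CPM (horizontal axes) of the 7 genes by interneuron kind or cluster (rows), with 95% Poisson intervals for counting error alone. Grik4 reaches 45.8 CPM in the cluster led by Nos1, and Grik1 is 9.50 CPM in the cluster led by Pthlh against 342 CPM in that led by Vip, where 2 of 4 vectors were at 0. Vip was detected in 7 of the 27 nuclei of the cluster led by Vip.

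Combinations in single nuclei were counted at equal depth. There 82.6% of striatal projection neuron-like nuclei held Grik2 without Grik1 (123 of 149, exact interval 75.5 to 88.3%), and 0 held both. Of 242 GABAergic-like nuclei, 40.9% held both, 21.1% Grik1 alone and 16.9% Grik2 alone. Glutamatergic-like nuclei were split between Grik2 without Grik1 (47.5%) and neither (51.5%).

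A channel-forming subunit together with Grik4 or Grik5 was found in 59.1% of striatal projection neuron-like, 43.4% of GABAergic-like and 52.5% of glutamatergic-like nuclei. Grik4 or Grik5 without any of Grik1 to Grik3 was seen in 28.7% of glutamatergic-like nuclei, against 8.72% of striatal projection neuron-like and 10.7% of GABAergic-like nuclei. No Grik gene was detected in 8.05% of striatal projection neuron-like, 7.85% of GABAergic-like and 13.9% of glutamatergic-like nuclei, and in 61.5% of astrocyte-like and 67.3% of oligodendrocyte-like nuclei. A missing read does not show that a gene was off, since the reads of 1 nucleus are few.

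Of the Neto genes, both were found in 39.6% of striatal projection neuron-like, 23.6% of GABAergic-like and 15.8% of glutamatergic-like nuclei. Neto1 without Neto2 prevailed in glutamatergic-like nuclei, 34.7% against 7.92% with Neto2 without Neto1. In Pvalb-like nuclei Neto2 without Neto1 was the more frequent, 34.4% against 15.1% with Neto1 without Neto2, while in Sst-like nuclei these shares were 13.5% and 27.1%. These shares are descriptions with no test, and nuclei of 1 vector share their source.

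**Figure D4:**
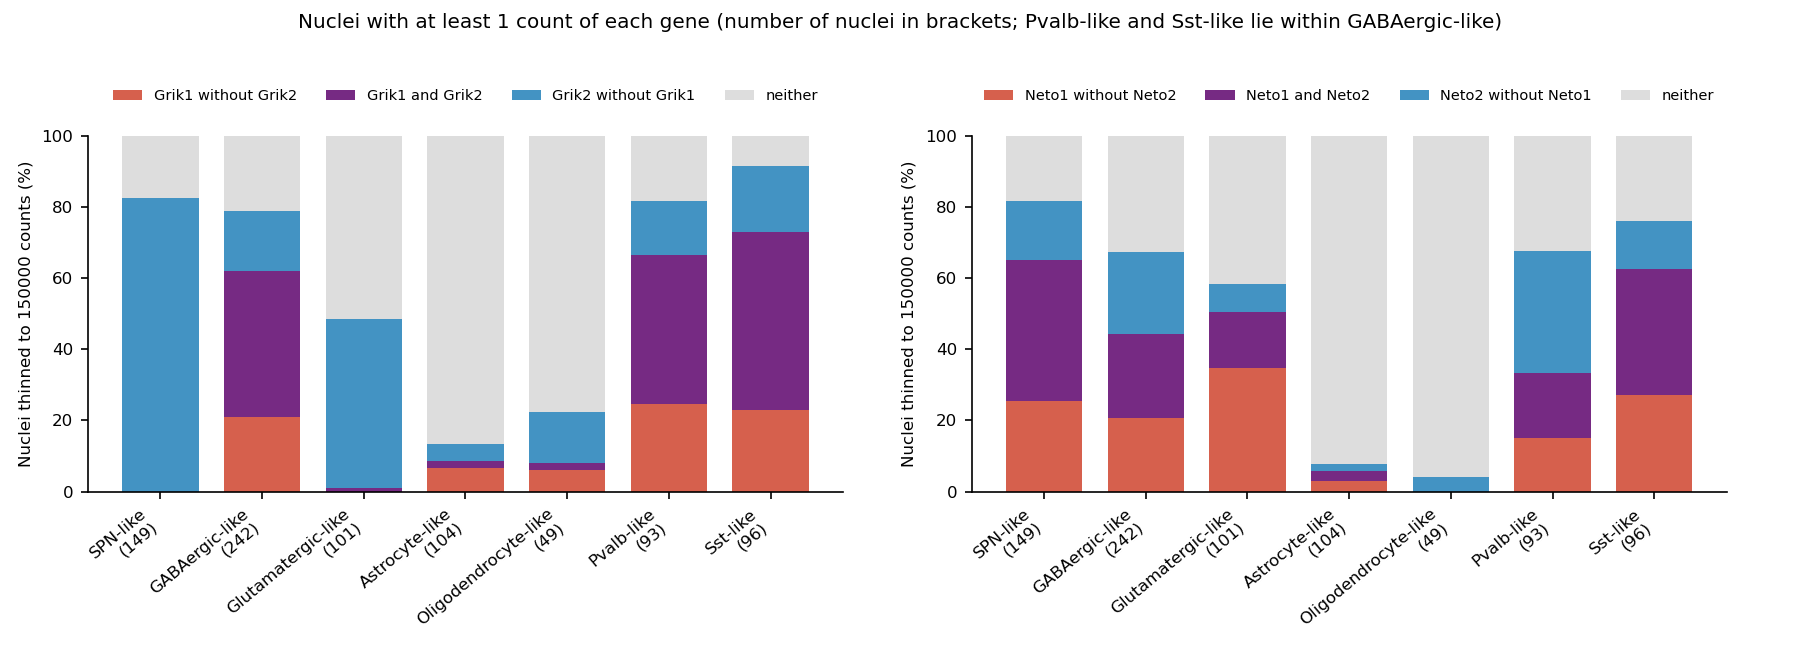
Shares in percent (vertical axes) of nuclei, each thinned to 150000 reads, with at least 1 read of Grik1 or Grik2 (left) and of Neto1 or Neto2 (right), by class or interneuron kind (horizontal axes, nuclei in brackets). The Grik1 colours are absent from striatal projection neuron-like (SPN-like) nuclei, where 82.6% held Grik2 without Grik1.

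Glia held little of the family. Astrocyte-like nuclei averaged 54.4 ± 34.998 CPM of Grik5 over 9 vectors (SD), with a lowest sum of 7.80 CPM, and each of the other 6 members was at 0 under at least 4 of the 9 vectors. In the 9 vectors that also held GABAergic-like nuclei, Grik1 averaged 19.3 CPM in astrocyte-like and 209 CPM in GABAergic-like nuclei and was lower in 9 of 9, while Grik5 averaged 54.4 and 79.5 CPM in the same order and was lower in 5 of 9. Oligodendrocyte-like nuclei had means between 0 CPM of Neto1 and 43.2 ± 52.7 CPM of Grik1 (SD, 7 vectors). Within a class, fewer cells with a gene and less RNA per cell cannot be told apart from the sums alone.

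Levels of different genes can be compared only per length, and the treatment of introns in the counting is not given in the sources used here, so both lengths are used. Per kb of exons, Grik2 led the striatal projection neuron-like nuclei with 40.1 CPM per kb, followed by Grik5 (32.5), Neto1 (30.1) and Neto2 (27.9 CPM per kb). Per kb of gene span, Grik5 led with 2.69 CPM per kb and Grik2 followed Neto2 and Neto1 with 0.77 CPM per kb. In GABAergic-like nuclei the leader was Grik1 per kb of exons (37.97 CPM per kb) and Neto2 per kb of gene span (2.59 CPM per kb). Grik5 led glutamatergic-like nuclei on both scales (25.7 CPM per kb of exons and 2.13 CPM per kb of gene span).

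Over 60 summed libraries of a class and a vector, the gene whose log2(CPM + 1) was most like that of Grik1 was Nxph1 (Pearson's r = 0.83), a neurexin ligand that also served as a GABAergic marker. Tenm2, an adhesion protein, and Scn2a, a sodium channel, were most like Grik2 (both r = 0.85). Atp2b2, a plasma membrane calcium pump, and Grin2b were most like Grik5 (0.85 and 0.81). Epb41 was most like Neto1 (0.86), Zfp385b most like Neto2 (0.84), and the highest values were lower for Grik3 (Cfap74, 0.65) and Grik4 (Dpp10, 0.67). Among the members, Grik2 with Neto1, Grik2 with Neto2 and Neto1 with Neto2 had r = 0.71, 0.70 and 0.70, while Grik1 ran from -0.20 with Grik5 to 0.09 with Neto2. The summed libraries share their vectors and differ in class and depth, and no test was made of these correlations.

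Summed over the 40 nuclei of a vector, Grik1 was highest under DLX2.0 (248 CPM, 95% Poisson interval 239 to 258), where 63.2% of the nuclei kept were GABAergic-like, followed by AiE0600m (214 CPM). It was lowest under AiE0779m (3.36 CPM, 3.23% GABAergic-like). Grik2 was highest under AiE0387m (390 CPM) and AiE0078h (370 CPM), where 62.5% and 37.5% of nuclei were striatal projection neuron-like, and lowest under AiE0390m (44.6 CPM), CMV (47.8 CPM) and hSyn1 (56.0 CPM), which held none. The order of vectors did not follow that share throughout: AiE0779m had 67.7% and 236 CPM, AiE0410m had 58.3% and 79.3 CPM (283 CPM without nuclei under 1000 genes), and AiE0452h had 0% and 169 CPM. DLX2.0 and hI56i had 248 and 23.01 CPM of Grik1 and 88.5 and 252 CPM of Grik2, with 63.2% and 14.8% GABAergic-like nuclei and 0% and 44.4% striatal projection neuron-like nuclei.

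Grik5 was highest under AiE0390m (179 CPM), where 75.8% of the nuclei kept were glia. With nuclei under 1000 genes left out, that value was 119 CPM, below AiE0140h (154 CPM), AiE0450h (142 CPM), AiE0779m (132 CPM) and AiE0475m (124 CPM), so the order rests on the nuclei left out of the classes. Grik4 was highest under AiE0682h (36.9 CPM), Grik3 under hSyn1 (66.7 CPM), Neto1 under AiE0387m (254 CPM) and Neto2 under AiE0078h (238 CPM). Each vector is 1 sample with its own mix of classes, so these levels were not tested against each other.

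**Figure D5:**
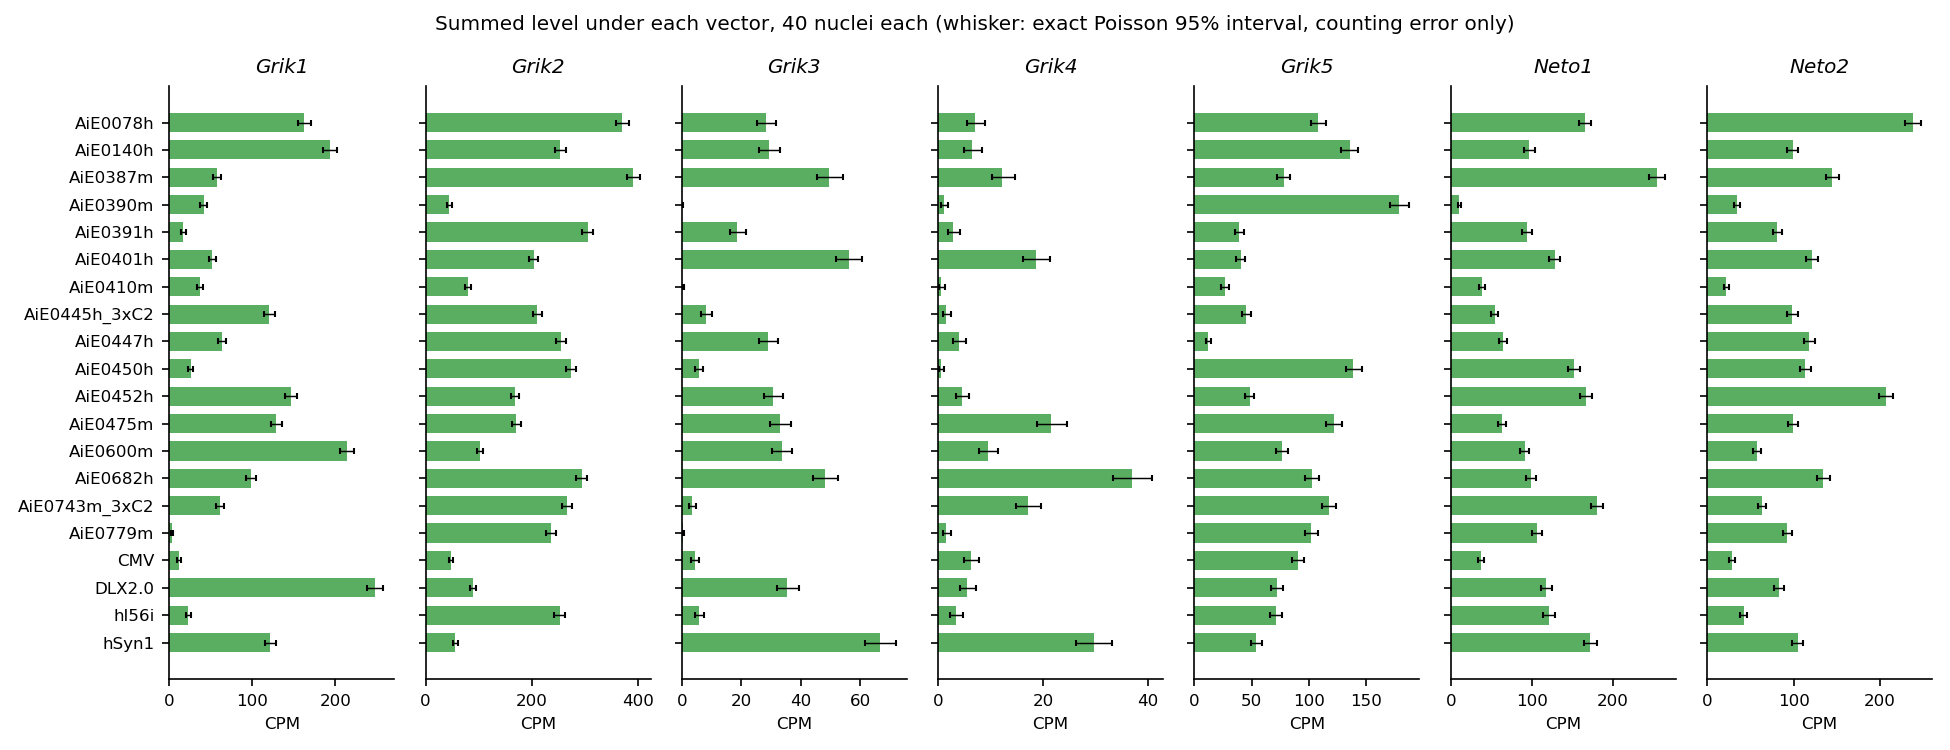
Summed levels in CPM (horizontal axes) of the 7 genes under each of 20 vectors (rows, 40 nuclei each), with 95% Poisson intervals for counting error alone. Grik1 is highest under DLX2.0 (248 CPM) and lowest under AiE0779m (3.36 CPM).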

How the data were processed

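Single nuclei were sequenced with SMART-Seq v4, which copies whole transcripts of 1 nucleus per library and keeps no strand, per the labels' protocols. The authors deposited raw read counts per gene, made with STAR 2.7.2a on mm10 per the submitters' processing notes, and the counting of introns is not given in the sources used here. In all the table holds 2501 columns, of which 1701 match no label and were not used. Summed counts per vector ran from 9467151 to 12192831. Intervals and floors cover counting error only, since reads without molecular identifiers are not independent molecules.

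Nuclei with under 1000 genes were left out (102 of 800). The other 698 were clustered with scanpy 1.11.5 and leidenalg 0.10.2 (2000 variable genes, values capped at 10, 30 principal components, 15 neighbours, resolution 1) without 39 genes, the members and lists, and named from fixed markers. Each library held 1 sorted nucleus, so no doublet caller was run. Counts were summed per class and vector with at least 3 nuclei, and classes were compared within vectors with edgeR 4.0.16 (quasi-likelihood test, TMM, filter on low counts, vector as block, Benjamini-Hochberg at 0.05, R 4.3.3). The vector pairs the sums because both classes came from nuclei labelled with it. DESeq2 1.42.0, RLE scaling, no filter, other gene minimums, library series, runs, marker scores and leaving out each vector were alternatives. The fits were tested on simulated data with known fold changes. Detection was counted after thinning nuclei to 150000 reads, which 35 of the 698 did not reach.

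Named genes were the 7 members, the list genes that passed the threshold and the 3 genes most like each member. The members, lists and comparisons were chosen with earlier results of these data known.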

Additional observations from a re-analysis of the deposited data

Results flagged for a closer look

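Over 26 groups of 4 to 10 vectors, 10 held a vector whose sum lay far from the others by Dixon's test at its 95% critical value. Chance flags about 1 in 20 groups of normal values, but many of these groups are mostly at 0, where 1 vector above 0 sets the ratio, so the number is not compared with chance. All were the highest of their group and rested on few nuclei. In astrocyte-like nuclei over 9 vectors, Grik1 was 91.1 CPM under AiE0445h_3xC2 (6 nuclei, next 32.8 CPM). Grik2 was 221 CPM under AiE0401h (4 nuclei, next 36.7 CPM), and Neto2 was 69.0 CPM there (next 3.07 CPM). Grik3 was 136 CPM under AiE0600m (8 nuclei) and 0 under the other vectors.

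In oligodendrocyte-like nuclei over 7 vectors, Grik3 was 82.0 CPM under AiE0682h (6 nuclei) and 0 elsewhere, and Grik4 was 25.2 CPM there (next 1.74 CPM). Grik5 was 92.4 CPM under hI56i (5 nuclei, next 11.6 CPM), and Neto2 was 93.9 CPM under AiE0447h (16 nuclei, next 4.73 CPM). Among interneuron clusters over 4 vectors, Grik2 was 88.5 CPM under AiE0387m in the cluster led by Pthlh (6 nuclei, next 7.59 CPM). Neto1 was 447 CPM under AiE0452h in the cluster led by Vip (3 nuclei, next 59.0 CPM).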

How the results depend on the processing

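Of 344 log2 fold changes under alternatives, 296 kept direction and side of the threshold, among them members not called as reported that stayed so. Of the others 23 lost their call, all for Grik2 or Grik5, 19 reversed and 6 gained a call. Of 287 class levels, 280 moved by less than 1 SD. Of 280 levels under a vector 123 moved beyond their counting interval, and 15 of 61 counts of members called moved. Members called against GABAergic-like nuclei were 3 (Grik1, at 0 in 1 class, among them), 0 with runs of 8 as unit (Grik1 fell below that fit's filter), 1 within library series S40326, 1 within runs that hold striatal projection neuron-like nuclei (chosen after seeing the data) and 2 to 3 without 1 vector. Every count above 0 here includes Grik1, whose 0 reads in 1 class fixed the outcome. Grik1 was the only member left within S40326 and within those runs, so no call of another member was kept there. Grik2 (adjusted p = 0.389 and 0.229, edgeR) and Grik5 (adjusted p = 0.177 and 0.242, edgeR) were not called in either. Against glutamatergic-like nuclei they were 1 as reported, 0 with no replicate block, within S40326 and within those runs, and 0 to 1 without 1 vector. Between Pvalb-like and Sst-like nuclei they were 0 as reported and without any 1 vector, 1 with no filter, 1 with runs as unit (both Neto1) and 4 with DESeq2 (Grik3, low in Pvalb-like sums, among them). The cause of these moves was not tested. Direction reversed for Grik3 against GABAergic-like nuclei (log2 fold change 0.62 within S40326, 0.58 by marker score, -0.76 to 0.33 without 1 vector) and against glutamatergic-like nuclei (0.18 by marker score, -1.99 to 0.21 without 1 vector). It reversed for Neto2 within S40326 (-0.031 against GABAergic-like and -0.14 against glutamatergic-like nuclei), and for Grik5 between Pvalb-like and Sst-like nuclei (0.11 with runs as unit, 0.62 at 500 genes, -0.39 to 0.36 without 1 vector). With the replicate block dropped, Grik2 against glutamatergic-like nuclei had a log2 fold change of 1.62 (adjusted p = 0.0593, edgeR). Sums of 1 vector did not deviate together (median r 0.0017, 0.00041 and 0.0073, with 0 pairs above 0.1). All genes called against GABAergic-like nuclei were 728, against 2572 with DESeq2, 1291 with no filter, 307 with runs as unit, 280 within S40326 and 275 within those runs, where 65.5% of calls were higher against 40.7% as reported. Against glutamatergic-like nuclei 234 were called, against 1066, 400, 136, 54 and 91 in the same order. Between Pvalb-like and Sst-like nuclei 38 were called, against 567 with DESeq2, 125 with no filter, 22 with no block, 7 within S40326, 15 at 500 genes, 9 by marker score, 17 without those runs and 21 without the cluster led by Nos1. Series S40324 alone left too few vectors for a fit.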
